A study of Mus musculus with 2 samples.

Results

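Some droplets of a single-cell library labelled as T cells held the defining transcripts of a T cell and of a macrophage at once, and these double-positive droplets are described here. They were taken as every cell of the deposited table with 1 or more UMIs (unique molecular identifiers, each standing for 1 captured RNA molecule) of each of 5 genes. C1qa, Csf1r and Lyz2 mark macrophages, and Cd3e and Trac mark T cells. Of 17390 cells, 462 met the rule, of which 416 were in the untreated library and 46 in the treated library. The droplets were chosen by the UMIs of these 5 genes, whose detection and levels are therefore given as a description only.

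NILER, the mouse melanoma model behind both libraries, is a UV-exposed derivative of NIL, a line with a mutated Nras. Material of day 5 was profiled with a droplet 3' kit, and both libraries were labelled as T cells, while the sorting steps were not given in the sources used here. The untreated group received no drug. In the other group BGB-283, which targets RAF kinases, was combined with trametinib, which blocks MEK1/2. There was 1 library per group, so no spread between animals was available, no test was made, and treatment and library cannot be told apart. All intervals are exact 95% intervals that cover counting error only.

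Macrophages are phagocytes that engulf dying cells and debris, digest them in lysosomes and present peptides on MHC class II molecules to T cells. C1qa, C1qb and C1qc encode the chains of the complement starter C1q, Csf1r encodes the receptor for the growth factor CSF1, and Lyz2 encodes a lysozyme. T cells carry the CD3 chains and the T cell receptor alpha constant chain encoded by Trac. Cytotoxic T cells carry the CD8 chains encoded by Cd8a and Cd8b1, helper T cells carry CD4, and regulatory T cells add the transcription factor FOXP3. CD4 can also be found on myeloid cells.

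The droplets were set beside 2 kinds of reference cells of the same library. Macrophages were cells with C1qa, Csf1r and Lyz2 but no Cd3e or Trac UMI, of which there were 109 (untreated) and 69 (treated). T cells were cells with Cd3e and Trac but no C1qa UMI, which numbered 6276 and 5898. The label of the droplets was checked with lineage genes that the rule did not use, 15 for T cells and 14 for macrophages. Untreated double-positive droplets held a median of 14 of the 15 T cell genes, with a range of 3 to 15, and a median of 13 of the 14 macrophage genes, with a range of 3 to 14. In the treated library the medians were 11.5 T cell genes and 10.5 macrophage genes. Macrophages held a median of 0 of the T cell genes in each library, and T cells a median of 1 of the macrophage genes. The 2 libraries shared 35 barcodes, and 2 of the double-positive droplets were among the 70 cells that carry them.

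The droplets made up 4.47% of the untreated cells (interval 4.06 to 4.91) and 0.569% of the treated cells (0.417 to 0.759). Among cells with the 3 macrophage genes, 416 of 564 untreated cells (73.8%, interval 69.9 to 77.3) and 46 of 134 treated cells (34.3%, 26.3 to 43.0) also held Cd3e and Trac. At full depth most untreated cells with the macrophage genes were therefore double-positive, and most treated ones were not. Thinned to 2000 UMIs per cell, the shares were 12.9% and 8.62%, so neither library then had a majority and the libraries were closer. Among cells with Cd3e and Trac, 5.68% of 7324 untreated and 0.743% of 6189 treated cells were double-positive.

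The UMIs of the rule genes, given as a description, stood beside median totals of 30546.5 UMIs in untreated and 10928 in treated droplets. The untreated droplets held a median of 67 C1qa UMIs, with a range of 1 to 368, and the treated ones a median of 9, with a range of 1 to 189. Median Lyz2 UMIs were 65.5 and 9, and median Csf1r UMIs were 9 and 2. The T cell side was closer, with median Cd3e UMIs of 8 and 6.5 and median Trac UMIs of 9 and 4. Of all cells with Cd3e and Trac, 389 untreated cells (5.31%) held 10 or more C1qa UMIs, 231 held 2 to 9 and 428 held 1. In the treated library 25 cells (0.404%) held 10 or more, 121 held 2 to 9 and 145 held 1. The untreated cells with C1qa were thus spread over low and high counts, whereas the treated ones were mostly at low counts. Relative to depth, the 14 macrophage genes outside the rule were given as CPM (UMIs scaled to a fixed total of all UMIs of the class). They summed to 14688 CPM in untreated and 25530.0 in treated droplets. Much of that was Apoe, at 4070 and 15036 CPM, of which 10 treated droplets held 79.9% of the UMIs. Of the 17 macrophage markers, with those of the rule, 3 were over 1.5 times higher in treated droplets and 1 was lower. Over all genes tested 20.7% were higher and 19.4% lower.

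Droplets near the edge of the rule were common for Csf1r. In the untreated library 59 of the 416 droplets passed with 1 Csf1r UMI, and 261 cells lacked Csf1r alone of the 5 genes. In the treated library 18 of 46 passed with 1 Csf1r UMI, and 149 cells lacked it alone. For C1qa, 21 untreated and 6 treated droplets passed with 1 UMI, while 73 and 31 cells lacked it alone. The cells that lacked only Csf1r had a median of 11446 UMIs in the untreated library and 7164 in the treated library.

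The untreated double-positive droplets were the deepest of the 3 classes. Their UMI total had a median of 30546.5, with a range of 3884 to 117960, against medians of 11365 in macrophages and 5889 in T cells. The median was 1.77 times the sum of the 2 reference medians, 17254 UMIs, and 321 of 416 droplets (77.2%, interval 72.8 to 81.1) lay above that sum. The treated droplets had a median of 10928 UMIs, against 10347 in macrophages and 6363.5 in T cells. That was 0.654 times the sum of the reference medians, 16710.5, and 11 of 46 droplets (23.9%, interval 12.6 to 38.8) lay above it. A cell with more UMIs meets a rule of 5 detected genes more easily, so depth is not independent of the choice. Median genes per droplet were 5346.5 in the untreated and 3231 in the treated droplets, and median mitochondrial shares were 4.03% and 3.17%, below those of both reference classes.

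**Figure D1:**
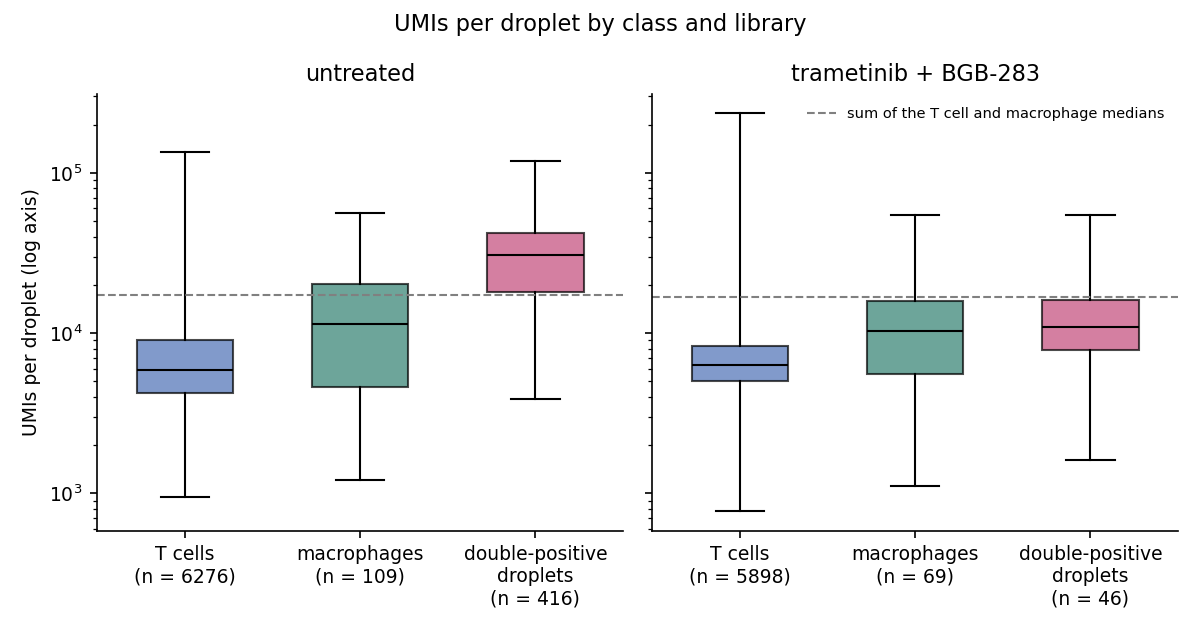
UMIs per droplet on a log axis for T cells, macrophages and double-positive droplets of each library (box, quartiles and median; whiskers, lowest and highest; dashed line, sum of the T cell and macrophage medians). The median of the untreated double-positive droplets, 30546.5, lies above the dashed line at 17254, and that of the treated ones, 10928, below the line at 16710.5.

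The plot of UMIs per droplet shows that the classes overlap in both libraries, and that only in the untreated library the lower quartile of the double-positive droplets lies above the sum of the reference medians.

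The extra depth held transcripts of both lineages. In untreated droplets the 15 T cell genes outside the rule summed to a median of 84 UMIs, 1.87 times the median of 45 in T cells. The 14 macrophage genes summed to a median of 416.5 UMIs, 1.37 times the median of 303 in macrophages. An untreated droplet thus held, at the median, as much RNA of these T cell genes as a T cell and as much of these macrophage genes as a macrophage, or more. In treated droplets the T cell genes had a median of 41.5 UMIs, 0.883 times the 47 of T cells, and the macrophage genes a median of 116.5, only 0.366 times the 318 of macrophages.

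Scaled to CPM and summed over the droplets of a library, the T cell and macrophage content were close to equal. The T cell genes stood at 47.5% of their level in T cells and the macrophage genes at 49.5% of their level in macrophages in the untreated library, which add up to 97.0%. In the treated library the shares were 55.5% and 50.5%, which add up to 106%. Apoe made up 15036 of the 25530 CPM of the macrophage genes there, and 10 of 46 droplets held 79.9% of its UMIs. Single droplets varied. The T cell share of this content had a median of 50.2% in untreated droplets, with quartiles of 31.9% and 68.4%, and 325 of 416 droplets (78.1%) lay between 20% and 80%. In treated droplets the median was 62.9%, with quartiles of 34.0% and 91.2%. Of these 46 droplets, 23 lay between 20% and 80%, 19 above 80% and 4 under 20%.

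The bands of T cell share were set after seeing the data, and differing macrophage UMIs follow from how they were set. The 19 treated droplets above 80% held a median of 4 C1qa and 1 Csf1r UMIs and 40 UMIs of the macrophage genes, beside 65 UMIs of the T cell genes. The 23 droplets between 20% and 80% held a median of 19 C1qa UMIs and 288 UMIs of the macrophage genes, in a median total of 13338 UMIs. The 4 droplets under 20% held a median of 137 C1qa UMIs and 1394.5 UMIs of the macrophage genes. In the untreated library the 325 droplets between 20% and 80% held a median of 73 C1qa UMIs in a median total of 31304 UMIs, and the 50 droplets above 80% a median of 7 C1qa UMIs in 19593 UMIs.

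**Figure D2:**
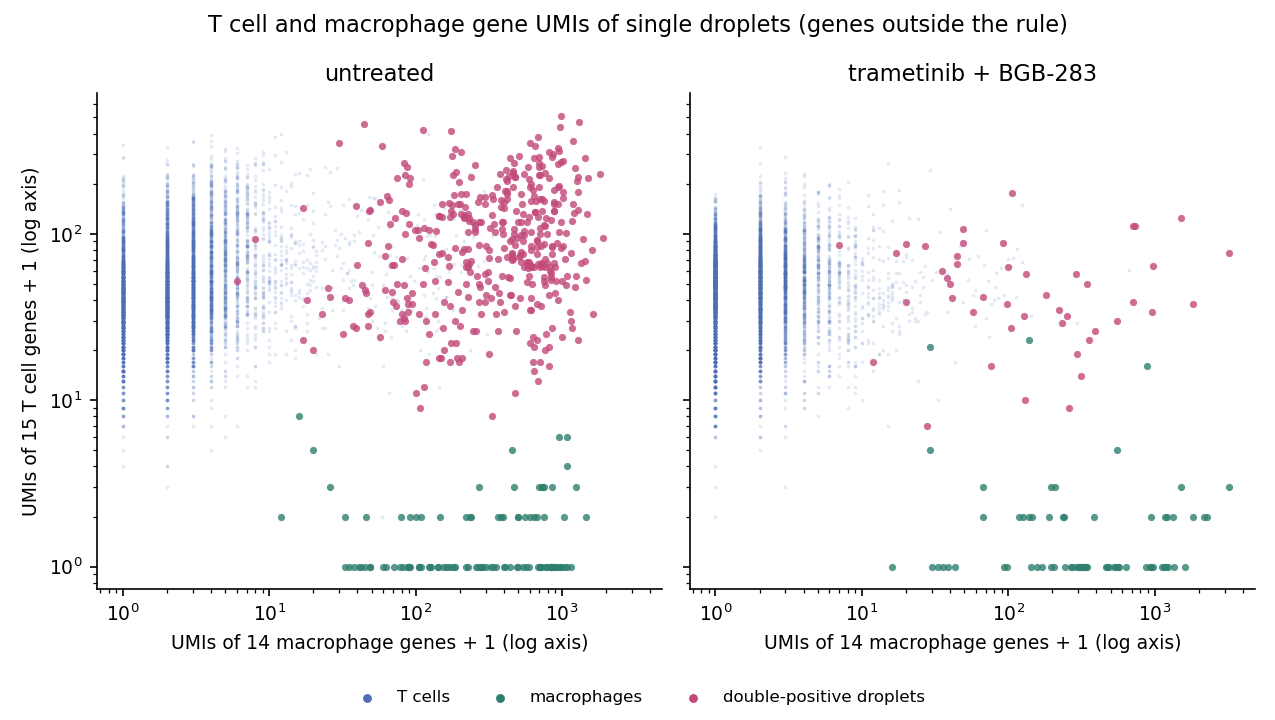
Each point is 1 droplet, placed by its UMIs of 14 macrophage genes (x) and of 15 T cell genes (y), both plus 1 on log axes, with none of the 5 rule genes counted. Untreated double-positive droplets lie at high values of both sums (medians 416.5 and 84), and treated ones are spread along the x axis (medians 116.5 and 41.5).

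In the plot of the lineage sums, single T cells also reach high macrophage sums, and the T cell reference, defined without C1qa, held up to 13 of the 14 macrophage genes in each library.

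For most of the genes tested, the droplets lay between their references. Genes entered with 50 UMIs or more and 20 CPM or more in any of the 3 classes. In the untreated library 11 of 5820 genes (0.189%) were over 1.5 times above both reference levels and 0 (0.0%) were over 1.5 times below both, while 72.3% lay between them. Against the mean of the 2 references weighted by the content shares above, 5708 of the 5820 genes (98.1%) were within 1.5 times. Among the 1225 genes whose references differed over 3-fold, 94.9% were within 1.5 times of that mean. In the treated library 37 of 5470 genes (0.676%) lay above and 110 (2.01%) below both references, and 63.2% lay between them. There 88.4% were within 1.5 times of the weighted mean. Among the 1263 treated genes whose references differed over 3-fold, 80.4% were within 1.5 times of it. The treated sum rests on 620760 UMIs from 46 droplets, against 13561216 from 416.

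The 8 genes furthest above both references in the untreated library were 4 globin genes, Fn1, Ifitm1, Ncoa6 and Ube3b. The beta globin gene Hbb-bt stood furthest above, at 4.72 times the nearer reference. The beta globin gene Hbb-bs stood at 1274 CPM in untreated droplets, 451 in macrophages and 307 in T cells, a ratio of 2.82 (interval 2.62 to 3.05) to the nearer reference. Hba-a2 and Hba-a1 followed at 2.57 and 2.49 times. These transcripts of red blood cells were held by few droplets: 47 of 416 had an Hbb-bs UMI, and 10 droplets held 99.7% of its UMIs. Fn1, which encodes the matrix protein fibronectin, stood at 84.9 CPM against 37.4 in macrophages and 11.6 in T cells, and was spread wider, over 137 droplets with 35.2% of its UMIs in the top 10. Ifitm1, an interferon-induced membrane protein gene, stood at 127 CPM against 66.5 and 42.4, and had a UMI in 159 droplets. Ncoa6, a coactivator gene, stood at 1.68 times and Ube3b, a ubiquitin ligase gene, at 1.66 times.

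In the treated droplets the neutrophil genes S100a9 and S100a8 stood furthest above, at 261 and 249.7 CPM against 41.8 and 49.4 in macrophages. Both came from 2 droplets: 1 droplet held 161 of 162 S100a9 UMIs and 154 of 155 S100a8 UMIs. Setd1a, Ncoa1, Fem1b, Ints3, Tyk2 and Syvn1 followed at 1.77 to 2.49 times the nearer reference, each with 26 to 44 UMIs. On the lower side genes with 0 UMIs in the droplets tie, and the 8 taken in alphabetical order were Abi3bp, Aebp1, Bgn, Col12a1, Col1a1, Col1a2, Col5a1 and Col5a2, so their order is no ranking. A count of 0 in the droplets allows up to 5.94 CPM. The T cell levels of all 8 lay under that, from 0.16 to 5.34 CPM. A level below both references was therefore not detectable at this depth for these genes. All 1094 Col1a1 UMIs of the treated macrophages were in 1 of 69 cells.

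The T cell class of the droplets was read from Cd8b1, Cd4 and Foxp3. In untreated droplets, 82.2% (interval 78.2 to 85.8) had a Cd8b1 UMI, against 61.0% of T cells and 2.75% of macrophages. A Cd4 UMI was present in 58.7% (53.8 to 63.4), against 21.9% of T cells and 25.7% of macrophages, so Cd4 in these droplets does not mark a T cell class alone. Foxp3 had a UMI in 22.6% of droplets, 10.0% of T cells and 0.917% of macrophages. Droplets and references differed in depth, with medians of 30546.5, 5889 and 11365 UMIs. When each cell was thinned to 2000 UMIs, Cd8b1 was found in 34.9% of the droplets against 48.9% of T cells, Cd4 in 9.13% against 10.8%, and Foxp3 in 3.85% against 5.08%. All 3 shares were above those of T cells at full depth and below them at equal total depth. The T cell genes of the droplets stood at 47.5% of their level in T cells. Lower shares at equal total depth therefore largely follow from the thinning. With 50 to 150 UMIs of the T cell genes, Cd8b1 was found in 86.4% of droplets against 73.5% of T cells. Cd4 was found in 60.6% against 22.4% and Foxp3 in 19.7% against 13.02%, the last with overlapping intervals. That band was set after seeing the data, with medians of 85.5 and 71 UMIs.

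In treated droplets 76.1% (interval 61.2 to 87.4) had a Cd8b1 UMI, against 76.0% of T cells and 2.90% of macrophages. Cd4 was present in 26.1%, 14.9% and 14.5%, and Foxp3 in 13.04%, 8.14% and 0 of 69 cells, which allows a share of up to 5.21%. Thinned to 2000 UMIs, the droplets had Cd8b1 in 53.3%, Cd4 in 8.89% and Foxp3 in 2.22%, against 59.1%, 8.03% and 4.39% of T cells. Thinning left out 110 T cells and 6 macrophages of the untreated library, and 158 T cells, 4 macrophages and 1 droplet of the treated library. CD8 transcripts were thus the most frequent class mark of the droplets in each library, as they were among T cells.

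Relative to T cell RNA, the CD8 genes were within 1.5 times of T cells in each library, while Cd4 in both and Foxp3 in the treated library were over 1.5 times higher. Per 100 UMIs of Cd3d and Cd3g, 2 CD3 chain genes that the rule did not use, untreated droplets held 30.5 Cd8b1 UMIs against 28.4 in T cells, and 21.9 Cd8a UMIs against 20.3. Foxp3 stood at 2.08 against 1.54, and Cd4 at 5.39 against 2.27, with Cd4 at 35.5 CPM in macrophages. Treated droplets held 29.7 Cd8b1 UMIs against 26.3, 25.9 Cd8a UMIs against 24.7, 3.07 Foxp3 UMIs against 1.39 and 4.55 Cd4 UMIs against 1.97. The treated Foxp3 ratio rests on 23 UMIs.

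Many untreated droplets held marks of more than 1 T cell class. Cd8b1 together with Cd4 or Foxp3 was found in 204 of 416 droplets (49.0%, interval 44.1 to 54.0), against 5.35% of T cells. Since Cd4 was also present in macrophages, Cd8b1 with Foxp3 is the cleaner pair: it was found in 73 droplets (17.5%, 14.01 to 21.6), against 2.52% of T cells. Cd8b1 alone was found in 138 droplets, Cd4 alone in 34, Foxp3 without Cd8b1 in 21 and none of the 3 genes in 19. The difference was also present where T cell RNA was matched: with 50 to 150 UMIs of the T cell genes, Cd8b1 with Foxp3 was found in 26 of 198 droplets (13.1%, 8.76 to 18.6) and in 96 of 2389 T cells (4.02%, 3.27 to 4.89). The band did not match exactly, as the median was 85.5 UMIs in the droplets and 71 in the T cells. Thinned to 2000 UMIs, Cd8b1 with Foxp3 was found in 4 of 416 droplets (0.962%, 0.263 to 2.44) and in 0.389% of T cells (0.250 to 0.579), with overlapping intervals. Cd8b1 with Cd4 or Foxp3 was then found in 3.13% of droplets and 1.17% of T cells.

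Among treated droplets, Cd8b1 with Cd4 or Foxp3 was found in 6 of 46 (13.04%, interval 4.94 to 26.3), against 3.54% of T cells, and Cd8b1 with Foxp3 in 2. Cd8b1 alone was found in 29 (63.0%). The treated share of mixed classes was below the untreated share, and the treated droplets were shallower, with 41.5 against 84 UMIs of the T cell genes at the median. At 50 to 150 UMIs of the T cell genes, 5 of 19 treated droplets (26.3%, 9.15 to 51.2) held Cd8b1 with Cd4 or Foxp3, against 103 of 198 untreated ones (52.0%, 44.8 to 59.2).

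**Figure D3:**
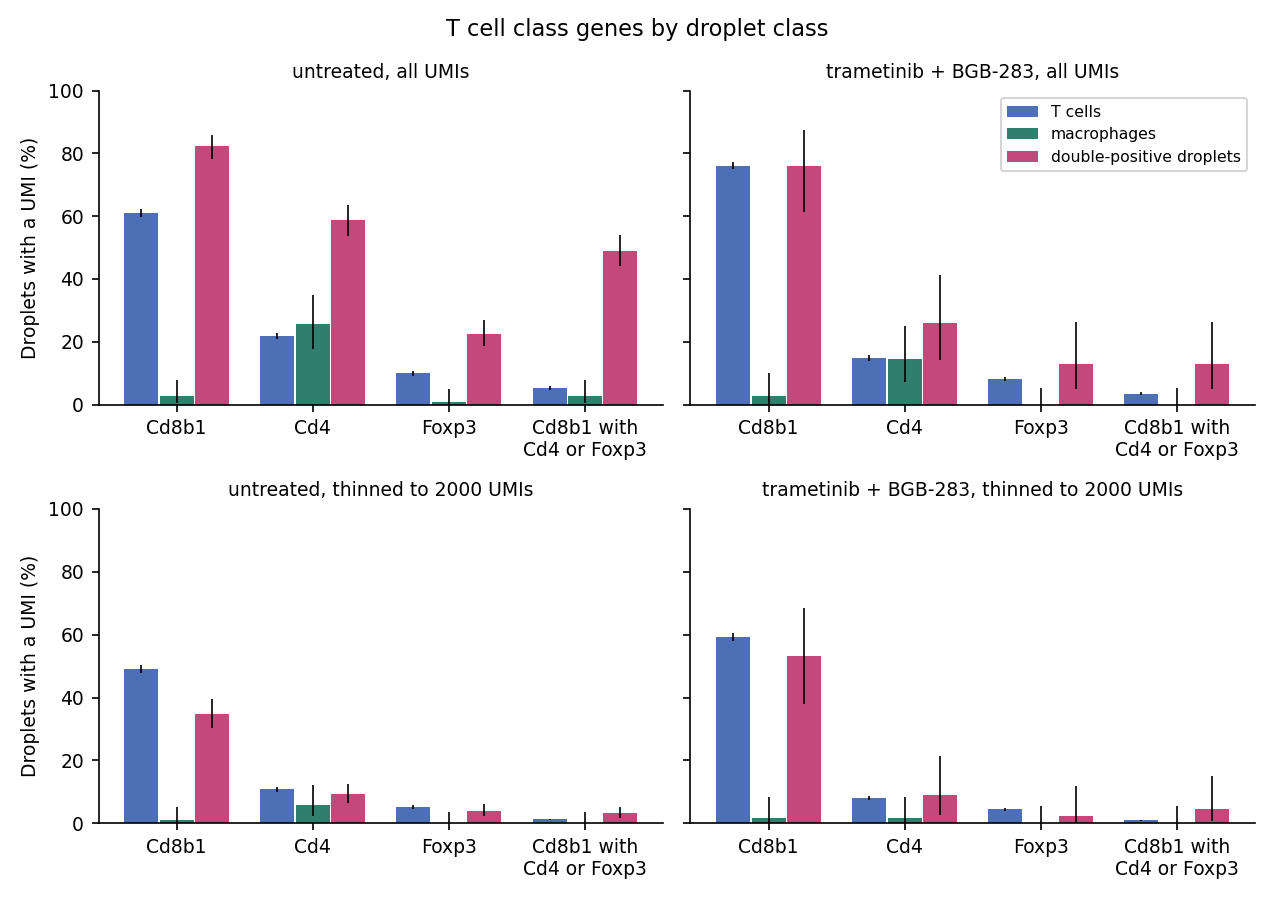
Share of droplets with a UMI of Cd8b1, Cd4, Foxp3 and of Cd8b1 with Cd4 or Foxp3, for T cells, macrophages and double-positive droplets (bars, percent; error bars, exact 95% binomial intervals), at full depth (top) and thinned to 2000 UMIs (bottom). At full depth 49.0% of untreated double-positive droplets hold Cd8b1 with Cd4 or Foxp3, against 5.35% of T cells.

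As the bars for thinned cells show, the untreated droplets turned from above to below T cells at equal total depth for each single gene. The droplets held less T cell RNA than T cells at equal total depth, so this turn largely follows from the thinning. For Cd4 and Foxp3 the intervals of the droplets took in the T cell share. Cd8b1 with Cd4 or Foxp3 did not turn.

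Cd8b1 with Cd4 or Foxp3 was more frequent in larger droplets, in which any gene is detected more easily. Among the 104 untreated droplets below the lower quartile of UMIs, with 3884 to 18147 UMIs, 20.2% held Cd8b1 with Cd4 or Foxp3. In the next 3 groups of 104, in order of size, the share was 48.1%, 51.0% and 76.9%, the last with 42650 to 117960 UMIs. Across all 4 groups Cd4 was found in 31.7%, 61.5%, 61.5% and 79.8%, and Foxp3 in 15.4%, 21.2%, 18.3% and 35.6%. As Cd4 was also present in macrophages, the rise does not mark T cell classes alone. Over the same 4 groups the median UMIs of the T cell genes were 39, 71.5, 99.5 and 195, and those of the macrophage genes 105.5, 383, 577.5 and 717.5. As the groups were made by total UMIs, a rise of both sums largely follows from how they were made. The median T cell share of content was 64.5%, 42.5%, 40.2% and 53.0% in the same order.

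Genes of T cell states were set beside those of T cells on the same scale. Per 100 Cd3d and Cd3g UMIs, untreated droplets held 13.6 UMIs of Tcf7, a transcription factor of naive and memory T cells, against 8.05 in T cells, and 12.2 of Lef1 against 8.90. The granzyme B gene Gzmb stood at 22.7 against 25.6, and Pdcd1, which encodes the inhibitory receptor PD-1, at 8.42 against 9.25. Of 27 T cell list genes at 20 CPM or more in T cells and over 10-fold above their level in macrophages, 22 were within 1.5 times of the T cells on this scale. Among the 4 higher genes were Tcf7, S1pr1 and Satb1, and Gzma was lower.

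In treated droplets 15 of 23 such genes were within 1.5 times of T cells. Foxp3, Il2ra, Ikzf2, Tox and Ifng were higher, and Gzmc, Gzmf and Prf1 were lower. Tox, a factor of exhausted T cells, stood at 12.97 against 8.495 UMIs per 100, and Ifng, the gene of interferon gamma, at 8.96 against 5.24. Gzmc stood at 0.27 against 1.48 and rests on 2 UMIs.

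Relative to C1q RNA, the macrophage genes of untreated droplets were close to those of macrophages. Per 100 UMIs of C1qb and C1qc, 53 of 58 macrophage list genes were within 1.5 times of the macrophages, and the median ratio was 0.984. The 58 were the genes at 20 CPM or more in macrophages and over 10-fold above their level in T cells. They include C1qb and C1qc, which set the scale, so their closeness (ratios 1.01 and 0.983) follows from how it was made. Apoe, a lipid carrier gene, stood at 96.9 UMIs per 100 against 112, Trem2, a lipid-sensing receptor gene, at 3.10 against 2.94, and H2-Aa, a chain of MHC class II, at 28.3 against 27.9. The F4/80 gene Adgre1 stood at 4.03 against 4.51, and Mrc1, the mannose receptor gene, at 4.74 against 4.87. Cd163, a haemoglobin scavenger receptor gene, stood lower at 0.19 against 0.67, as did Cbr2 (0.44 against 0.74), Gpnmb (0.12 against 0.49) and Cd36 (0.15 against 0.53). One gene was higher, the chemokine gene Cxcl2 at 6.24 against 3.16. Cd163 was unevenly held, as 1 macrophage held 48.2% of the 85 UMIs of its class.

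As CPM of the class total, the macrophage markers in untreated droplets stood at 2475 for C1qb, against 4792 in macrophages and 12.4 in T cells. C1qc stood at 1727 against 3445 and 8.19. Adgre1 stood at 169 against 371, Cd68, a lysosomal membrane protein gene, at 290.98 against 619.6, and Cd14, a receptor for bacterial lipid, at 328 against 461. The Fc receptor genes Fcgr1 and Fcer1g stood at 192 against 356 and at 1849.7 against 3405. Mertk, a receptor for dying cells, stood at 28.2 against 60.0. Ms4a7 stood at 239 against 556, Aif1 at 439 against 925, the cathepsin gene Ctss at 1387 against 2657 and the adaptor gene Tyrobp at 1055 against 2039.6. All 14 markers outside the rule were below the macrophage level and above that of T cells.

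The macrophage genes were also set out by the class genes found in the droplet. As Cd4 was also present in macrophages, groups that use it do not mark T cell classes alone. Per 100 C1qb and C1qc UMIs, the 138 untreated droplets with Cd8b1 alone held 79.8 Apoe UMIs, the 55 with Cd4 or Foxp3 but no Cd8b1 held 96.7, and the 204 with Cd8b1 and Cd4 or Foxp3 held 103. Mrc1 stood at 4.13, 5.49 and 4.75 in the same order, Trem2 at 3.20, 2.78 and 3.14, and Adgre1 at 3.78, 4.18 and 4.10. H2-Aa was higher with Cd8b1 alone, at 35.0 against 25.4 and 27.0. The interferon-induced chemokine genes Cxcl9 and Cxcl10 had their highest values there too, at 3.85 against 0.78 and 1.91 and at 7.18 against 3.45 and 2.88. Of the 55 droplets 34 held Cd4 without Foxp3, as did 131 of the 204. C1qb stood at 2140, 3217 and 2479 CPM in the same order, so the groups also differed in macrophage content. Median totals were 25875, 22790.0 and 36214 UMIs. The parts of macrophage Cd4, macrophage content and depth in these differences were not tested. Over all untreated droplets, 126 had a Cxcl9 UMI and 10 held 48.6% of its UMIs, and the part of these droplets was not tested either.

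**Figure D4:**
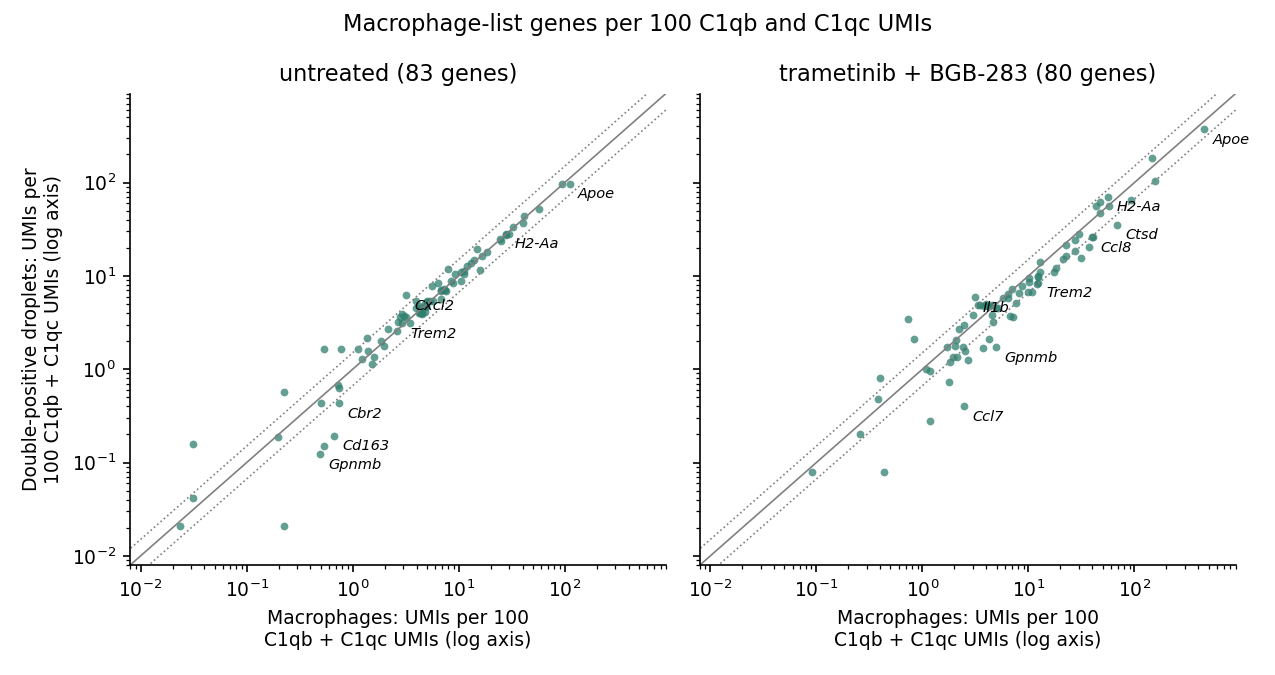
Each point is 1 gene of the macrophage lists, by its UMIs per 100 C1qb and C1qc UMIs in macrophages (x) and in double-positive droplets (y) of the same library, on log axes (solid line, equal; dotted lines, 1.5 times). Of the 58 untreated genes with little T cell signal 53 are within 1.5 times, and 46 of 66 in the treated library. Both counts include C1qb and C1qc, which set the scale and are not plotted.

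As the plot of the macrophage list shows, fewer genes of the treated droplets were near their level in treated macrophages. There 46 of 66 genes, C1qb and C1qc again among them, were within 1.5 times, and the median ratio was 0.830. Of the others, 19 were lower and 1, the cytokine gene Il1b, was higher. Il1b stood at 5.93 UMIs per 100 against 3.11. Among the lower genes were Gpnmb (1.72 against 4.97), Fabp5 (15.4 against 31.2), Lpl (3.69 against 6.64), Cd36 (1.56 against 2.52), Ccl8 (25.98 against 39.9) and Ccl7 (0.40 against 2.49). MHC class II leaned the other way, with H2-Ab1 at 62.6 against 47.4. A few droplets carried much of the treated sum: the top 10 held 79.9% of the Apoe and 89.4% of the Ccl8 UMIs.

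The droplets of the 2 libraries were then compared with each other, within the limit of 1 library per group. Of 5529 genes with 50 UMIs and 20 CPM in the droplets of 1 library, 1146 (20.7%) were over 1.5 times higher and 1074 (19.4%) over 1.5 times lower in treated droplets, with a median log2 ratio of 0.01. Without ribosomal and mitochondrial genes in the total the split was 1034 higher and 1661 lower. The T cell and macrophage content of the droplets also differed, as given above. Reference values of each library therefore stand beside part of the lists and genes, and the others are given for the droplets alone. The list counts that follow stand against the shares over all genes, 20.7% higher and 19.4% lower.

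Receptor-induced genes had the highest median of the lists apart from the neutrophil markers. Of 7 that passed the minimum, 6 were higher and 1 was lower, with a median log2 ratio of 2.05, against 2.52 in T cells and 1.48 in macrophages. Nr4a3, an orphan nuclear receptor gene induced by T cell receptor signals, stood at 55.7 CPM in untreated and 546 in treated droplets, a ratio of 9.81 (interval 8.604 to 11.2). It stood at 50.1 and 569 in T cells and at 21.3 and 176 in macrophages, so the difference was present in both references. Nr4a3 had a UMI in 241 of 416 untreated and 44 of 46 treated droplets. Crem, a cyclic AMP responsive factor gene, stood at 98.3 and 778 CPM, and Nr4a2 at 126 and 931. Cd69, an early activation marker, was the lower one, at 111 and 59.6.

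The lists of the macrophage side moved in different directions, beside 20.7% higher and 19.4% lower over all genes. Of 8 lipid-associated genes that passed, 5 were higher and 0 lower, with a median of 1.41 against 1.51 in macrophages. Lpl, a lipase gene, stood at 26.7 and 148 CPM (ratio 5.55, interval 4.37 to 6.998), Apoe at 4070.3 and 15036 and Lgals3, the galectin-3 gene, at 687 and 1896. In macrophages Apoe stood at 9217 and 31482. MHC class II had 4 of 6 genes higher and 0 lower, with a median of 1.00 against 0.45 in macrophages and -1.68 in T cells. H2-Aa stood at 1189.6 and 2830.4 CPM in droplets and at 2296 and 3898 in macrophages. Of 9 genes for the uptake of dead cells, 5 were higher and 1 lower, with a median of 0.70. Abca1, a cholesterol exporter gene, stood at 54.2 and 327, and the scavenger receptor gene Msr1 at 228 and 70.9. The lysosome list had 5 of 15 genes higher and 0 lower, with a median of 0.32, led by Ctsd at 575 and 1424 and Psap at 2172 and 4177.

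Chemokine genes split. Of 10 macrophage chemokine genes, 2 were higher and 6 lower, with a median of -0.68. Ccl8 stood at 135 and 1044 CPM in droplets, a ratio of 7.73 (interval 7.05 to 8.46), and at 219 and 2759 in macrophages. Among droplets with 20% to 80% T cell content the log2 ratio of Ccl8 was 1.99, against 2.95 in all. Ccl7 stood at 224 and 16.1 in droplets, the latter from 10 UMIs, and at 326 and 172 in macrophages. Ccl2 stood at 354 and 49.9, and Ccl3 at 191 and 29.0. The complement and Fc receptor list had 1 of 8 genes higher, C3ar1, and 4 lower, among them Itgam, the CD11b gene, at 199 and 69.3. Inflammatory genes were divided, with 3 of 6 higher and 3 lower: Arg1, the arginase gene, stood at 172 and 383, Il1b at 495 and 238 and Cxcl10 at 164 and 38.7. The treated Arg1 level came from few droplets: 10 held 97.1% of its UMIs and 1 held 32.4%. At full depth droplets with an Arg1 UMI were 47.6% of the untreated and 30.4% of the treated. Thinned to 2000 UMIs they were 15.9% (interval 12.5 to 19.7) and 22.2% (11.2 to 37.1), so the order turned, with overlapping intervals. The scavenger and resident list had 1 of 5 higher, the selenium carrier gene Selenop at 484 and 826, and 1 lower, Stab1 at 163 and 85.4. That is close to the shares over all genes, of which 20.7% were higher and 19.4% lower. Of the macrophage markers themselves, 3 of 17 were higher and 1 lower, with a median of -0.08.

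T cell lists were lower for naive genes and higher for inhibitory receptors. The naive and memory list had 5 of 9 genes lower and 0 higher, with a median of -1.61 against -1.55 in T cells. Klf2, a factor for T cell recirculation, stood at 474 and 101 CPM, and Ccr7, a lymph node homing receptor gene, at 157 and 35.4. Klf2 stood at 671 and 75.2 in T cells and at 318 and 125 in macrophages, so it does not mark T cells alone here. The inhibitory receptor list had 6 of 7 genes higher and 0 lower, with a median of 0.92 against 0.58 in T cells, and Tox stood at 43.1 and 156 and Pdcd1 at 78.0 and 163. The cytotoxic list was split, with 4 of 8 higher and 3 lower, and its median of 0.49 had the opposite sign to the -0.21 of T cells. Among droplets with 20% to 80% T cell content this median was -0.15. Ifng stood at 25.7 and 108, the chemokine gene Ccl5 at 744 and 1703, and Prf1, the perforin gene, at 76.2 and 20.9. Gzmc stood at 89.4 and 3.22, the latter from 2 UMIs. Of 14 T cell markers, 4 were higher and 0 lower, with a median of 0.27, beside 20.7% higher and 19.4% lower over all genes.

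Proliferation genes were lower in the treated droplets. All 10 G2M genes were over 1.5 times lower, with a median of -3.38, or -3.35 with Plk1, at 0 UMIs in treated droplets, set to the level of 3 UMIs. The medians were -2.91 in macrophages and -1.09 in T cells. Birc5, a survivin gene of dividing cells, stood at 109.7 and 4.83 CPM, the latter from 3 UMIs, and at 86.9 and 39.6 in T cells. Mki67 stood at 85.2 and 1.61 CPM, the latter from 1 UMI, an untreated to treated ratio of 52.9 with an interval of 9.48 to 2092. At full depth Mki67 was present in 202 of 416 untreated and 1 of 46 treated droplets. It was found in 23.9% and 5.80% of macrophages and in 10.7% and 9.60% of T cells. Thinned to 2000 UMIs, the share of droplets was 9.38% (interval 6.75 to 12.6) untreated and 2.22% (0.056 to 11.8) treated, with overlapping intervals. The S phase list had 9 of 10 genes lower and 1 higher, Pcna, with a median of -1.56.

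**Figure D5:**
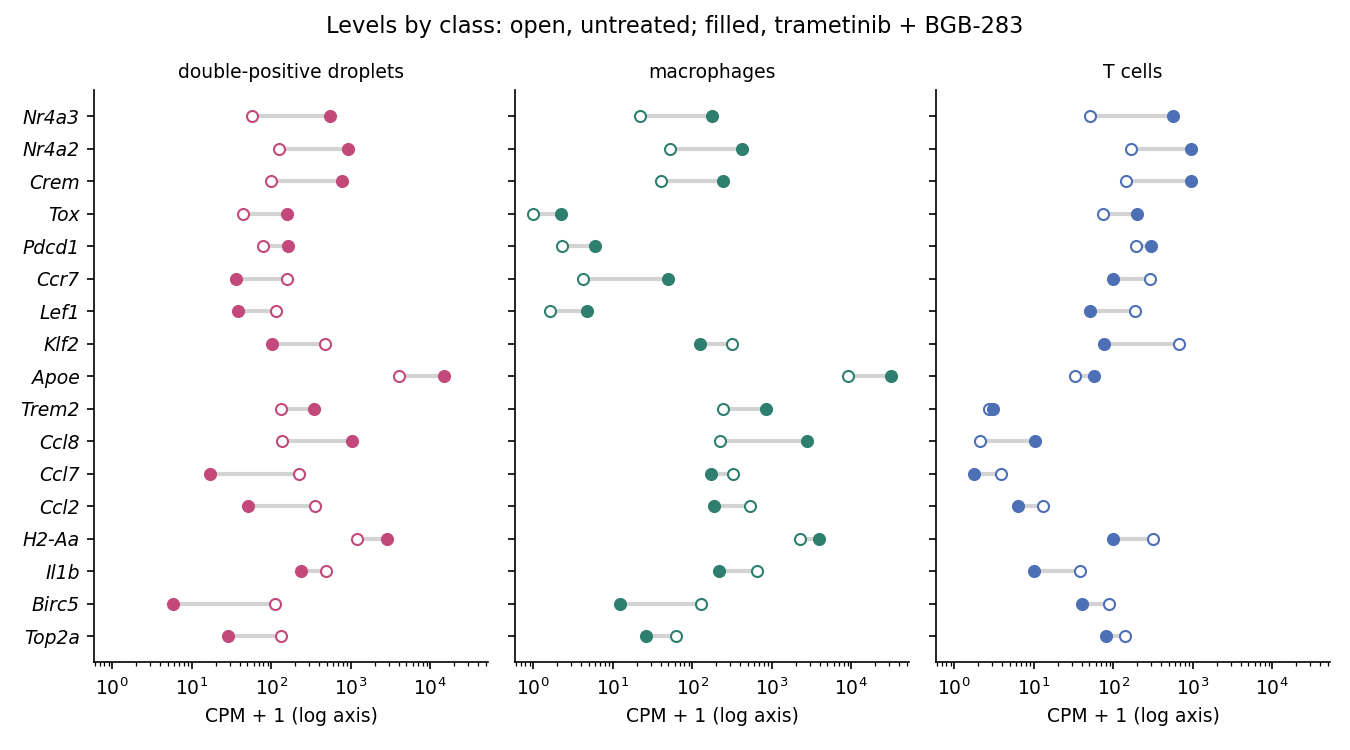
CPM plus 1 on a log axis of 17 genes named in the text, in double-positive droplets, macrophages and T cells (open circles, untreated; filled circles, trametinib plus BGB-283). Nr4a3 is higher in treated cells of all 3 classes (55.7 and 546 CPM in the droplets), and Ccl7 is lower in the droplets (224 and 16.1).

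As the plot of levels by class shows, for each of the 17 plotted genes, picked with their values known, the droplets differed between libraries in the same direction as the reference with the higher untreated level. This did not hold for all genes: Gzmb stood at 210.2 and 230.4 CPM in droplets and at 538 and 317 in T cells, and Cxcl9 at 91.6 and 48.3 in droplets and at 114 and 127 in macrophages.

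Other lists were small or mixed, and stand beside 20.7% higher and 19.4% lower over all genes. Type I interferon genes had 4 of 8 lower and 0 higher, with a median of -0.75. Heat shock genes had 1 of 6 higher, Dnaja1 at 285 and 611 CPM, and 2 lower, Hspa1a at 448 and 155 and Hspa1b at 379 and 132. Cell death genes had 3 of 7 higher and 2 lower, with Bcl2l11, the gene of the death factor BIM, at 74.0 and 192 and Bcl2 at 125 and 33.8. Adhesion and synapse genes had 3 of 9 higher and 0 lower, with Cd274, the PD-L1 gene, at 48.2 and 90.2. The regulatory T cell markers had 3 of 4 higher, and Il2ra stood at 22.8 and 93.4.

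Among all genes, those furthest apart by their counting interval began with S100a9 and S100a8, of which 1 treated droplet held nearly all UMIs. Next came Nr4a3, then Igf1, a growth factor gene, at 10.9 and 118 CPM (ratio 10.8, interval 8.03 to 14.4), with 44.5 and 425 in macrophages. Crem, Ccl8, Nr4a2, Camk2n1, Mgst1 and Irs2 followed, with ratios of 6.54 to 8.64. On the lower side the globin genes led, all at 0 UMIs in treated droplets. As 10 of 416 untreated droplets held 99.7% of the Hbb-bs UMIs, no fold is given for the 46 treated ones. Mmp13, a collagenase gene, stood at 86.9 and 1.61 CPM, the latter from 1 UMI, and at 156 and 1.27 in macrophages. Fcrls, an Fc receptor-like gene of macrophages, stood at 170.2 and 9.67 CPM, and at 332 and 58.2 in macrophages. Pclaf, a replication factor gene, stood at 147 and 4.83, and Cdca3, a mitosis gene, was at least 11.8-fold lower, taking 3 UMIs over all treated droplets as the limit.

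Markers of other cell types were low in the droplets, apart from globins, monocyte genes and the neutrophil genes of 1 treated droplet. Summed over 7 dendritic cell markers the untreated and treated droplets stood at 26.2 and 12.9 CPM, with Flt3, Clec9a, Cd209a and Ccl22 at 0 in the treated ones. Summed B cell markers stood at 19.2 and 11.3 CPM. Summed stromal markers stood at 26.2 and 8.05 CPM, against 4873 in treated macrophages, where 1 cell held all UMIs of Col1a1 and Col1a2. Summed neutrophil markers stood at 17.8 and 552.5 CPM, and summed monocyte markers at 1165 and 1029 CPM, against 1297 and 1156 in macrophages and 1102 and 987 in T cells. The NK cell markers Klre1 and Eomes stood at 31.6 and 77.3 and at 24.8 and 43.5 CPM, below the T cells of their library in each case. The gamma delta T cell gene Trdc had UMIs in 35 untreated and 0 treated droplets. Their part in the results above was not tested.

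A doublet caller gave these droplets higher median scores than both references without calling them. The automatic Scrublet threshold marked 4 untreated (0.0430%) and 0 treated cells, so it was taken as not working and no cell was removed. None of the 462 double-positive droplets was marked. Their median score was 0.0924 in the untreated library, against 0.0454 in T cells and 0.0593 in macrophages, and 0.0968 in the treated library, against 0.0480 and 0.0712. Among the 5% of cells with the highest scores were 57 untreated (13.7%) and 12 treated droplets (26.1%).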

How the data were processed

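Values in the table the authors deposited, with 15121 genes and 17390 cells, are natural log values: each cell's UMIs were scaled to 10000, 1 was added and the log taken, as checked on the values. Cell Ranger and Seurat are named without versions, per the submitters' processing notes, and the build listed there is GRCh38. Since gene symbols follow mouse style, coordinates were left out. Cells were assigned to libraries by their name suffix. UMIs were recovered from the deposited natural log values: 38204229 of 38204229 nonzero values were whole within 0.01. The double-positive droplets and all gene lists were chosen with earlier results of these data known.

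UMIs were summed per class and library and given as CPM. Shares have Clopper-Pearson intervals, levels Poisson intervals and ratios exact conditional binomial intervals, all at 95%. A fold of 1.5 served as the rule of size, and genes needed 50 UMIs and 20 CPM. Genes at 0 over a whole library (492 untreated, 644 treated) were taken as not measured there, which leaves 13998 in both. Depth was equalised by thinning each cell to 2000 UMIs. With 1 library per group no test was made. The genes named were the class genes, the macrophage markers, the 8 furthest outside both references, the 10 furthest apart between libraries and the 3 highest and lowest of each list. Genes named outside this rule after their values were seen were those singled out per 100 lineage UMIs and the markers of other cell types. The weighted mean of the references and the bands of T cell share were also added after seeing the data. Not eligible were sex-linked, predicted, mitochondrial and ribosomal genes and receptor segments. The ratio step was tested on simulated counts. Alternatives covered the UMI minimum, the cell filter, thinning, rule genes, references, scaling and expression minimum. Scripts ran in Python 3.11.15 with scanpy 1.11.5, pandas 2.3.3, matplotlib 3.10.9, scipy 1.17.1 and numpy 2.4.6. Values of some genes, and a count of T cell state genes found together, are not reported here.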

Additional observations from a re-analysis of the deposited data

How the results depend on the processing

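Of 106 alternatives for the main results, 52 moved a value by less than its counting interval or kept a gene count within 1.5 times. The other 54 moved it further. These values are shares, totals and counts, for which no reversal was scored, as only log2 ratios were scored for their sign. Of 264 for single list values, 248 were within those bounds and 15 moved further. One reversed, the median log2 ratio of the S phase list, at 0.69 with a minimum of 100 CPM, where fewer genes enter.

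The share of cells (untreated, treated) was 3.28% and 0.223% with 2 UMIs of each rule gene, 0.357% and 0.0666% when thinned to 2000 UMIs, and 3.90% and 0.409% with other genes of the same cell types. The share of cells with macrophage genes was 69.2% and 19.4%, 12.9% and 8.62%, and 77.4% (untreated) under the same settings. Thinning gave Cd8b1 34.9% and 53.3%, Cd4 9.13% and 8.89%, and Foxp3 3.85% and 2.22%. With 2 UMIs untreated Cd8b1 was 85.9% and Cd4 64.6%. At 50 to 150 UMIs of the T cell genes, chosen after seeing the data, Cd8b1 was 86.4% and 100%. T cell and macrophage content was 45.6% and 51.8% untreated and 50.1% and 68.3% treated with 2 UMIs. With stricter references it was 45.8% and 47.9% untreated, and 46.1% for treated macrophage content. Median depth was 34395 and 15149 UMIs with 2 UMIs, and its ratio to the summed medians 1.99 and 0.907. The untreated ratio was 1.62 at 10% mitochondrial UMIs or less and 1.93 with stricter references.

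Untreated genes above both references numbered 24 with the mean CPM of each cell, 18 without ribosomal and mitochondrial genes, 255 with 10 UMIs and no CPM minimum and 5 at 100 CPM. Those below numbered 1 with the mean CPM of each cell, 138 with 10 UMIs and 1 with 2 UMIs of each rule gene. Treated genes above numbered 74, 649 with 10 UMIs, 4 at 100 CPM and 99 with 2 UMIs of each rule gene. Those below numbered 186 without ribosomal and mitochondrial genes, 1278 with 10 UMIs, 22 at 100 CPM and 259 with 2 UMIs of each rule gene. Of the 110 in the main count, 90 had a lower reference level above that of 3 UMIs, a count chosen after seeing the data, as were the droplets with 20% to 80% T cell content. Between the libraries 2751 genes were higher and 3037 lower with 10 UMIs, 469 and 241 at 100 CPM, and 1661 lower without ribosomal and mitochondrial genes. The cause of these moves was not tested.

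No paired analysis was possible because each group had 1 library, and for the same reason no replicate could be left out. The 46 treated droplets limit precision: 3 UMIs correspond to 4.83 CPM there and to 0.221 CPM in the untreated droplets.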
